A study of Rattus norvegicus with 8 samples.

Results

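The genes described here encode the peptide cargo of the chromaffin granule and the enzymes that cut and modify it: the granins Chga, Chgb, Scg2, Scg3 and Scg5, neuropeptide Y (Npy), and the processing enzymes Pcsk1, Pcsk2, Cpe and Pam. They were taken by gene symbol from the platform annotation of the array. Of the 10 genes listed, 9 had a probe set, 11 probe sets in all, out of 10411 genes named on the array, and Pcsk1 is not analysed here. RNA came from the adrenals of 7-day-old rats. Hypoxic litters lived in 12% O2 together with the mother from the day they were born, and normoxic litters in room air with mothers that fed freely. Both groups had the capsule removed from the glands, which were then frozen and pooled, 24 glands to a pool, with 4 hypoxic and 4 normoxic pools on an array each. The labels give each pool as a sample of its own and do not name the strain, the sex or how litters were spread over pools. A p-value here sets the group difference against the spread between these pools, which need not be the spread between litters. The design asked how growth in low oxygen alters gene expression in the neonatal gland.

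Chromaffin cells of the adrenal medulla store catecholamines in dense core granules together with soluble acidic proteins, the granins, and with neuropeptides. Granins condense in the trans-Golgi network, where they take part in forming and filling the granule, and are themselves precursors of bioactive peptides. Prohormone convertases such as Pcsk1 and Pcsk2 cut precursors at pairs of basic residues, carboxypeptidase E (Cpe) trims the basic residues left at the new end, and the amidating enzyme Pam turns a terminal glycine into an amide, a step that mature neuropeptide Y needs. The nerve supply and hormones that act through cyclic AMP and the factor CREB are known regulators of several of these genes. In bulk samples of these glands, a changed share of chromaffin cells and changed RNA per chromaffin cell cannot be told apart.

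The bases before the start site are shown for the 4 genes whose hypoxic and normoxic pools did not overlap (Npy, Scg3, Pam and Scg5) and for Scg2, the only one of the 8 matched promoters with a full cyclic AMP response element. Those matched were Chgb, Scg2, Scg3, Scg5, Npy, Pcsk2, Cpe and Pam. No promoter entry was found for Chga, so its promoter was not searched. The sequences are RefSeq's for rat assembly GRCr8, 250 bases that end just before the annotated start, written 5′ to 3′ along the gene. They lie at chr4:80211861-80212110 (plus strand) for Npy, chr8:85322485-85322734 (minus strand) for Scg3, chr9:105570118-105570367 (plus strand) for Pam, chr3:121042796-121043045 (minus strand) for Scg5 and chr9:88256867-88257116 (minus strand) for Scg2. Capitals mark matches to the half-site of the cyclic AMP response element (TGACG or its reverse CGTCA) or to the core of the hypoxia response element (ACGTG or CACGT). The full element TGACGTCA holds a half-site on each strand.
Npy: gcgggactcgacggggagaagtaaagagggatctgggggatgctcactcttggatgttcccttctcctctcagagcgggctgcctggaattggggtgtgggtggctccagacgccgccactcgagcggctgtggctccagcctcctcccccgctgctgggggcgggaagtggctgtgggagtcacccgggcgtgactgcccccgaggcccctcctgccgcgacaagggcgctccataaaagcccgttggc
Scg3: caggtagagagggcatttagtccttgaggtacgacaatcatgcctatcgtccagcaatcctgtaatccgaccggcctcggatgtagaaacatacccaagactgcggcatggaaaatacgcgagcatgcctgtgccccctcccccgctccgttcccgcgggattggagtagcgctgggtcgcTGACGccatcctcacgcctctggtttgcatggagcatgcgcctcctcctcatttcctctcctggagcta
Pam: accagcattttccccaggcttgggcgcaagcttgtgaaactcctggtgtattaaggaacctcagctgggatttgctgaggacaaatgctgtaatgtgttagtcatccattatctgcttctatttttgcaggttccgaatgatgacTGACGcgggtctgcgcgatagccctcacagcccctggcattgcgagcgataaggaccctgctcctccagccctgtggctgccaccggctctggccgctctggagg
Scg5: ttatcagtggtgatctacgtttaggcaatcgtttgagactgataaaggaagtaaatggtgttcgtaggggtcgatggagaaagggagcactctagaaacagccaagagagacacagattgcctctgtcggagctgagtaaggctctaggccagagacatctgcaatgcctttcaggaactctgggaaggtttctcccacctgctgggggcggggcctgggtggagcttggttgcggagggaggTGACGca
Scg2: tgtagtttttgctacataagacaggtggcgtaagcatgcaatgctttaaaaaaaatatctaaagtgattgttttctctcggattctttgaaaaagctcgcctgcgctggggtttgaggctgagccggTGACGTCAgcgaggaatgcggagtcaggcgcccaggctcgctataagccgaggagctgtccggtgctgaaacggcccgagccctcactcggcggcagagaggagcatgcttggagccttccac

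In these windows Scg3, Pam and Scg5 each had 1 half-site, 69, 105 and 7 bases before the start, and Npy had none. In Scg2 the full element began 123 bases before the start. Of the 8 matched promoters, those of Scg2, Scg3, Scg5, Pcsk2, Cpe and Pam held a half-site, 6 in all, and 18.2% of the 33469 promoters of the same length in the table did. The full element was in 1.59% of them. The hypoxia response core was in 1 of the 8, that of Cpe, where it overlapped the half-site, and in 16.6% of all. The 8 matched windows, which do not include Chga, were 53.2% to 79.6% G or C, against a median of 51.2% over all. Such a match is a string of letters and not a measured binding site.

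Array signals are probe set intensities in arbitrary units, which the authors had scaled to a common mean, with array medians from 228.2 to 248.7. As a measure of background, 15 probe sets for bacterial genes reached 30.2 at most, with a median of 5.20. Differences were tested with limma over 11106 probe sets, on log2 of the intensity plus 16, and an adjusted p is a Benjamini-Hochberg value over all of them. The gland's own markers were bright in every pool: tyrosine hydroxylase (Th, chromaffin cells) averaged 8743 ± 1784 (SD, n = 4) in normoxic pools, and Pnmt, the enzyme that makes adrenaline, 9615 ± 1658. The beta-actin 5′ over 3′ signal ratio, a sign of RNA integrity, ran from 0.413 to 0.744 in normoxic and from 0.249 (pool 1) to 0.713 in hypoxic pools (exact permutation p = 0.429, two-sided, 4 against 4 pools). That of Gapdh ran from 0.587 to 0.731 and from 0.556 to 0.659 (exact permutation p = 0.2).

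Of the 8 genes bright enough to be tested, Npy, Scg3, Pam and Scg5 were higher in every hypoxic pool than in any normoxic pool, Chga was higher on average with overlap, and the intervals of Cpe, Scg2 and Chgb held 0. None of the 8 passed an adjusted p of 0.05 in limma, which 0.18% of all tested probe sets did (20 probe sets). That total depends on single pools: it was 0 when normoxic pool 1, 2 or 3 or hypoxic pool 2 or 3 was left out, 1 when normoxic pool 4 was, 2 for hypoxic pool 4 and 31 for hypoxic pool 1. At an unadjusted p under 0.05 there were 5 of 8, all higher in hypoxic pools, against 4.16% of all probe sets called higher in that way. Groups that did not overlap with hypoxic pools on top were found for 4 of 8, against 2.76% of all. All 8 log2 differences were above 0, as were 45.2% of all, and their median was 0.34 beside -0.02 over all tested probe sets. That these genes lean higher was known from these data when they were chosen, so the counts are a description.

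**Figure D1:**
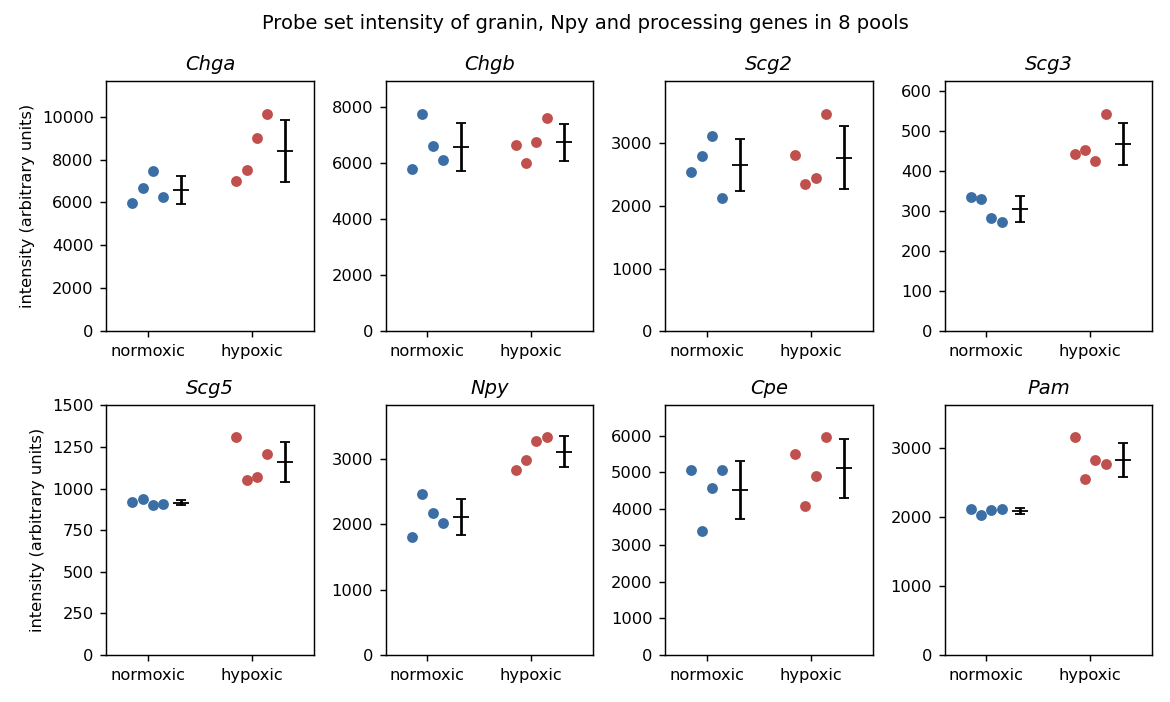
Probe set intensity (arbitrary units, linear axis from 0) of the 8 tested genes in 4 normoxic (blue) and 4 hypoxic (red) pools, 1 dot a pool in order of replicate number, with the mean and SD in black. For Scg3, Scg5, Npy and Pam all red dots lie above all blue dots, while for Chga, Chgb, Scg2 and Cpe they overlap.

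Npy encodes the peptide that chromaffin cells release with catecholamines and that constricts vessels. Its intensity was 1807, 2468, 2179 and 2016 in normoxic pools 1 to 4 and 2837, 2994, 3285 and 3335 in hypoxic pools 1 to 4. The groups were separate, with the highest normoxic pool at 2468 and the lowest hypoxic pool at 2837. The means were 2117 ± 279 and 3113 ± 238 (SD, n = 4 each), 1.47-fold on the log2 scale with the offset (95% interval 1.25 to 1.73). The log2 difference was 0.56 ± 0.11 (standard error; limma, adjusted p = 0.0844, rank 32 of 11106 by p). When the fit held the beta-actin ratio it was 0.62 and Npy passed (adjusted p = 0.0363), and over all alternatives tried the adjusted p ran from 0.0363 to 0.340.

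Among the granins, Scg3 had the largest log2 difference. This protein binds cholesterol-rich membrane and Chga and helps to sort Chga into granules. It read 334.1, 328.8, 282.4 and 271.1 in the normoxic pools and 442.3, 452.3, 425.6 and 542.4 in the hypoxic pools. All hypoxic pools lay above all normoxic pools, and hypoxic pool 4 was the highest. The log2 difference was 0.59 ± 0.12 (standard error; limma, adjusted p = 0.122), and the 95% interval of the fold ran from 1.25 to 1.81.

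Scg5 encodes a small granin-like chaperone that binds Pcsk2 and lets it mature. It read 921.3, 937.1, 900.8 and 904.6 in normoxic pools and 1308, 1050, 1071 and 1209 in hypoxic pools. The normoxic pools lay close together and below all hypoxic pools, of which pool 1 was highest. The log2 difference was 0.33 ± 0.10 (standard error; limma, adjusted p = 0.307). Its partner Pcsk2 was near the bacterial controls on its only probe set, from 6.0 to 15.8 in normoxic and from 5.0 to 24.0 in hypoxic pools, and was not tested.

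Chga, the most studied granin, is a precursor of the catecholamine release inhibitor catestatin and of vasostatins. It read 5989, 6665, 7459 and 6241 in normoxic pools and 6981, 7528, 8991 and 10140.7 in hypoxic pools. Only hypoxic pool 1 fell within the normoxic range. The log2 difference was 0.34 ± 0.13 (standard error; limma, unadjusted p = 0.0185, adjusted p = 0.451).

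Chgb and Scg2, other large granins, overlapped between groups. Chgb, which like Chga binds calcium and catecholamines in the granule, read 5786, 7753, 6592 and 6101 in normoxic pools and 6631, 5987, 6733 and 7592 in hypoxic pools. The hypoxic values lay wholly within the normoxic range, and the log2 difference was 0.04 with a 95% interval from -0.20 to 0.29 (limma, adjusted p = 0.953). Scg2, the precursor of secretoneurin, read 2550, 2797, 3115 and 2135 in normoxic pools and 2822, 2352, 2446 and 3474 in hypoxic pools. Only hypoxic pool 4 lay above the normoxic range, and the log2 difference was 0.06, from -0.25 to 0.37 (limma, adjusted p = 0.941). A difference of the size of that of Scg5 lies outside the interval of Chgb and inside that of Scg2. The sign of Chgb turned without hypoxic pool 4 (-0.017) or normoxic pool 1 (-0.015), and that of Scg2 without hypoxic pool 4 (-0.051) or normoxic pool 4 (-0.036).

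Of the processing enzymes, Pam was separate between groups and Cpe was not. Pam read 2109, 2022, 2097 and 2115 in normoxic pools and 3149, 2545, 2823 and 2763 in hypoxic pools. The normoxic pools lay close together, and the lowest hypoxic pool stood above them. The means were 2086 ± 43.2 and 2820 ± 249 (SD, n = 4 each), a log2 difference of 0.43 ± 0.09 (standard error; limma, adjusted p = 0.122), 1.35-fold with an interval from 1.18 to 1.54. Pam's other probe sets were dim, from 25.1 to 61.7 and from 2.3 to 26.6 over the pools, and were not tested. The second of these lay below the highest bacterial control in every pool, and the first did so in hypoxic pools 1 and 2.

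Cpe read 5055, 3380, 4558 and 5053 in normoxic pools and 5485, 4083, 4900 and 5954 in hypoxic pools. Normoxic pool 2 and hypoxic pool 2 were the lowest of their groups, and the groups overlapped. The log2 difference was 0.18, with a 95% interval from -0.14 to 0.51 (limma, adjusted p = 0.797). It was 0.05 without normoxic pool 2 and 0.28 without hypoxic pool 2.

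The pools differed across these genes. Hypoxic pool 4 was the highest hypoxic pool for 6 of the 8 genes and the lowest for 0, and hypoxic pool 2 the lowest for 5 and the highest for 0. Pool 1 was the highest for the remaining 2, Scg5 and Pam, although it was the lowest for Chga and Npy. Normoxic pools shared the extremes more evenly, each being highest for 1 to 3 of the genes. With hypoxic pool 4 left out, Npy was still higher by 0.52 and Scg3 by 0.52 on the log2 scale, Pam by 0.44 and Scg5 by 0.31, and Chga by 0.25.

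**Figure D2:**
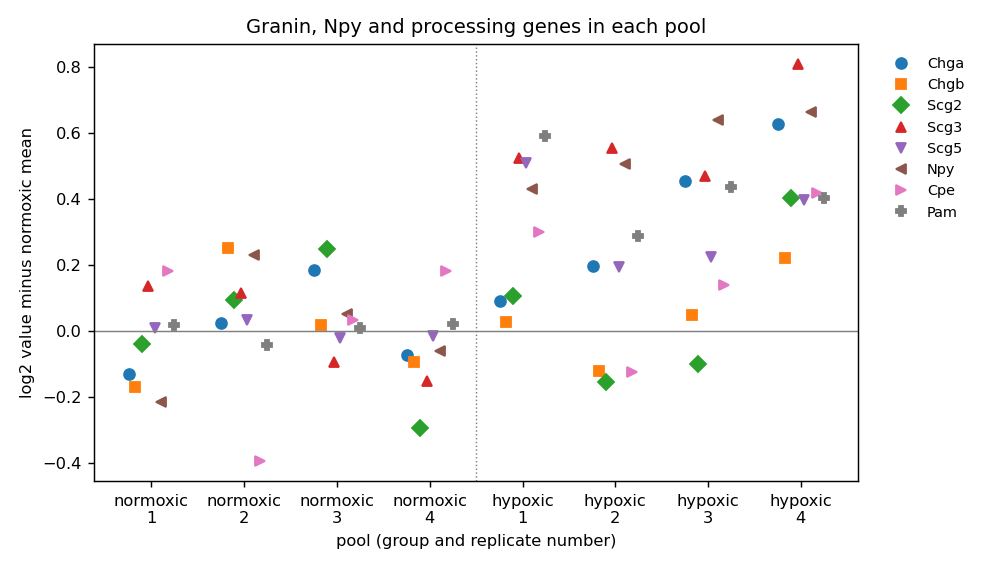
Log2 value of each of the 8 tested genes in each pool minus that gene's normoxic mean, with normoxic pools left and hypoxic pools right of the dotted line. Scg3 and Npy lie above 0.4 in every hypoxic pool, Chgb and Scg2 lie on both sides of 0, and hypoxic pool 4 is above 0.2 for all 8.

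**Figure D3:**
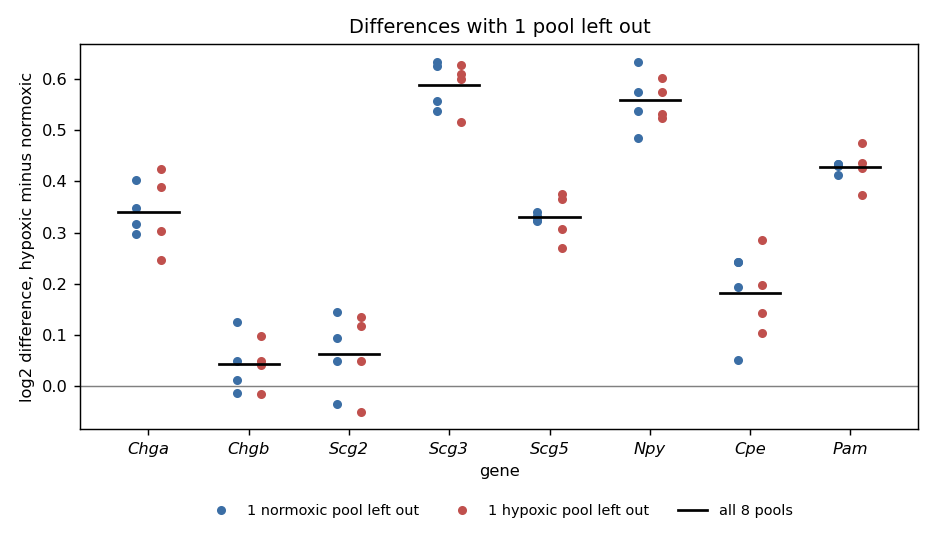
Log2 difference, hypoxic minus normoxic, of each tested gene with all 8 pools (line) and with 1 normoxic (blue) or 1 hypoxic (red) pool left out. Npy stays between 0.49 and 0.63 and Scg3 between 0.52 and 0.63, while Chgb and Scg2 cross 0.

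Within-array ratios between the genes compared their responses directly, over 28 pairs. Chgb over Npy had a log2 ratio from 1.59 to 1.67 in normoxic and at most 1.22 in hypoxic pools, a shift of -0.52. Chgb over Scg3 shifted by -0.55, Scg2 over Npy by -0.50 and Scg2 over Scg3 by -0.53. Each of these 4 ratios was lower in every hypoxic pool, with an exact permutation p of 0.0286, the smallest that 4 against 4 pools can give, and 0.2 after adjustment over the 28 pairs. Chga over Chgb shifted by 0.30 with overlap (exact permutation p = 0.0571, adjusted 0.2). Scg3 and Npy differed from each other by 0.03 (exact permutation p = 0.943).

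The mean signal of a set of chromaffin genes was set beside these values. A reference of 11 chromaffin genes (among them Th, Ddc, Dbh, Pnmt, Slc18a1 and Gata3) had a mean log2 value higher by 0.19 in hypoxic pools, with overlap (exact permutation p = 0.171), and 11 of 11 differences were above 0 with a median of 0.18. Their summed intensity ran from 22454 to 31641 in normoxic and from 25583 to 36749 in hypoxic pools. At an unadjusted p under 0.05 in limma, 3 of the 11 were higher, against 4.16% of all probe sets. These were Ddc (0.36, with groups apart), Dbh (0.52) and Slc18a1 (0.25). A second, dimmer probe set of Ddc overlapped between groups and differed by -0.06 (limma, adjusted p = 0.971). Phox2a (0.0031) and Gata3 (0.0071) had the smallest differences of the 11. The reference thus holds genes that themselves lean higher, and values relative to it depend on that choice. Taken relative to this reference, Npy was higher by 0.37 (95% interval 0.08 to 0.66, limma adjusted p = 0.340) and Scg3 by 0.40 (0.02 to 0.77, adjusted p = 0.373). Pam was higher by 0.24 (interval -0.11 to 0.59), Chga by 0.15 and Scg5 by 0.14. On that scale Chgb (-0.15), Scg2 (-0.13) and Cpe (-0.0082) were on the other side of 0, 5 of 8 were above 0, and 2 of 8 had an unadjusted p under 0.05.

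**Figure D4:**
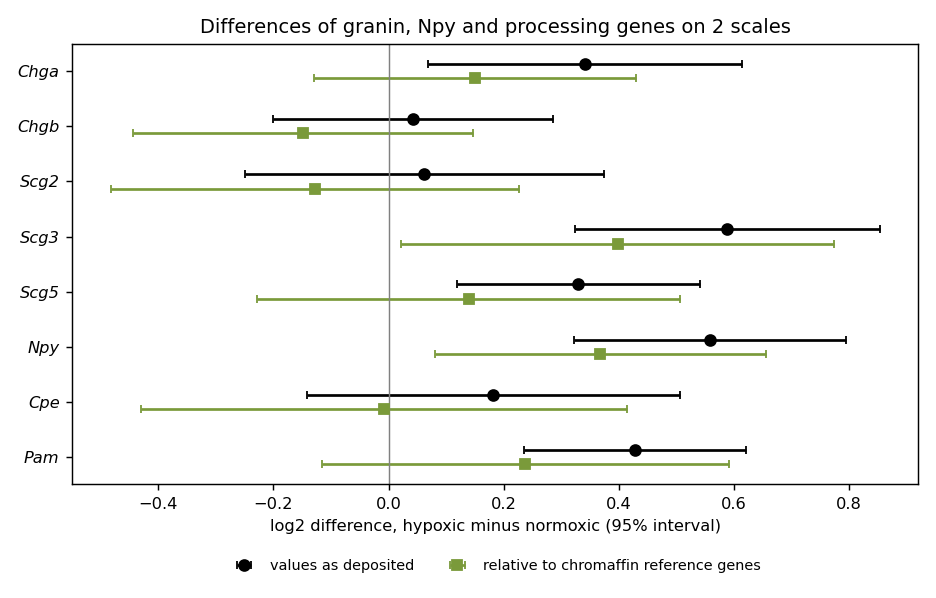
Log2 difference, hypoxic minus normoxic, with its 95% interval for the 8 tested genes on the values as deposited (black circles) and relative to the mean of 11 chromaffin reference genes in the same pool (green squares). On the second scale the intervals of Npy and Scg3 stay above 0 and the other 6 hold 0.

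Markers of other cells gave the following. Of 12 genes of neurons and nerve fibres, several of which chromaffin cells also express, 10 were higher with a median log2 difference of 0.26, and 1 rose in limma, the neurofilament gene Nefh (1.23, adjusted p = 0.0325). Their summed intensity ran from 5347 to 6839 in normoxic and from 6679 to 7654 in hypoxic pools (exact permutation p = 0.0857), and their part in the differences above was not tested. Cortex genes summed to 91518 to 124700 and 90816 to 133011 (9 genes, median 0.01, exact permutation p = 0.8). The medians were -0.17 for 8 adipose genes, -0.25 for 10 leukocyte genes, 0.02 for 10 endothelial genes, -0.03 for 7 Schwann cell genes and 0.42 for 3 red cell genes, with 0 past an adjusted p of 0.05 in limma. At an unadjusted p under 0.05, 5 neuron and nerve fibre genes (2 with groups apart) and 2 red cell genes were higher, and 3 leukocyte genes, 1 adipose, 1 endothelial and 1 cortex gene (Nr0b1) were lower. Over all tested probe sets 4.16% were higher and 498 of 11106 lower by that measure, and 2.76% were apart and higher. Groups were apart with hypoxic pools lower for 2 leukocyte genes and 1 endothelial gene. The share of all probe sets apart in that direction is not given here, so whether these counts are unusual cannot be told. All 8 adipose genes (-1.46 to -0.07) and 7 of 10 leukocyte genes were lower, and all 3 red cell genes higher. Genes listed as markers of fat and leukocytes were measurable in every pool: Fabp4 of the adipose list read 1037 to 5088 and the complement gene C1qa 329 to 609 over the 8 pools. Which cells gave these signals was not tested. The adipose genes summed to 4720 to 13522 in normoxic and 3858 to 10130 in hypoxic pools. The part of these cells in the differences above was not tested.

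Of 28 other granule cargo and neuropeptide genes listed, 13 were tested, 8 higher and 5 lower, with a median log2 difference of 0.05 and 0 past an adjusted p of 0.05 in limma. Vgf, a precursor related to the granins, read 284.6, 287.3, 398.3 and 380.6 in normoxic pools and 317.4, 637.7, 653.3 and 1016.8 in hypoxic pools. Hypoxic pool 1 lay among the normoxic pools and the other hypoxic pools lay above them (log2 difference 0.83, standard error 0.27, adjusted p = 0.376). Vip, a peptide of nerve fibres and some chromaffin cells, differed by 0.46 (adjusted p = 0.441) and Clu, a secreted chaperone, by 0.27 (adjusted p = 0.631).

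Pcsk1n, which encodes the granin-like inhibitor of Pcsk1, differed by -0.49 (standard error 0.30, limma adjusted p = 0.701). It read 3232, 5261, 3865 and 3632 in normoxic pools and 1286, 3116, 3540 and 4279 in hypoxic pools. Hypoxic pool 1 was far below the others. Penk, the precursor of enkephalins, read 1107 to 1199 in normoxic pools and 821.0 to 1611 in hypoxic pools, which lay on both sides of the normoxic pools (log2 difference 0.05, adjusted p = 0.967). The precursors Pomc and Tac1 stayed at 5.4 to 13.6 and 10.8 to 19.0 over all pools and were not tested.

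Among other peptide processing and degrading enzymes, 17 of 22 were tested, 11 higher and 6 lower, with a median of 0.04 and 0 past an adjusted p of 0.05 in limma. At the brightest probe set of each gene, Ide, the insulin-degrading enzyme, was the only one with groups apart and with an unadjusted p under 0.05 (log2 difference 0.34, adjusted p = 0.328), and its other probe sets differed by 0.20 and -0.02. Dpp4, a peptidase that trims neuropeptide Y, had groups apart on its slightly dimmer probe set, which read 164.5 to 204.5 in normoxic and 227.9 to 303.5 in hypoxic pools (log2 difference 0.58, adjusted p = 0.180). Its brighter probe set overlapped and differed by 0.10 (adjusted p = 0.875). The aminopeptidase gene Rnpep, whose product trims basic residues from the front of peptides, differed by 0.23 and the neprilysin gene Mme by 0.23. Furin, the convertase of the constitutive pathway, differed by 0.03 (interval -0.31 to 0.38), and Pcsk4 by -0.16.

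Of 32 genes of the granule membrane 24 were tested, and 19 of these leaned to higher values (median log2 difference 0.16, or -0.03 relative to the chromaffin reference). Over all tested probe sets 45.2% were above 0. Dbh and Slc18a1 stand both in this list and in that reference. The summed intensity of the list ran from 33682 to 38483 in normoxic and from 38592 to 45483 in hypoxic pools. The exact permutation p of 0.0286 is the smallest that 4 against 4 pools can give and was not adjusted over the lists. Sums of the 8 genes described here overlapped, from 24551 to 27184 and from 26992 to 35010 (exact permutation p = 0.0571). Sums of the other cargo, enzyme and receptor lists also overlapped (exact permutation p = 0.686, 0.429 and 0.971). At an unadjusted p under 0.05 in limma, 4.16% of all probe sets were higher and 498 of 11106 lower. In the granule membrane list, 6 genes were higher and 1 lower by that measure. Of these, 1 rose at the adjusted threshold of limma, Slc18a2, the vesicular monoamine transporter, from 209.9, 245.7, 310.5 and 223.9 to 470.2, 574.2, 437.7 and 529.4 (log2 difference 0.98, adjusted p = 0.0318). This call was lost without hypoxic pool 2, 3 or 4 or any single normoxic pool, and its second probe set differed by 0.61 (adjusted p = 0.399). Atp6ap1, an accessory subunit of the proton pump that acidifies granules, differed by 0.33 with groups apart (adjusted p = 0.236). Dbh, the enzyme that makes noradrenaline inside the granule, differed by 0.52 (adjusted p = 0.246) and the transporter gene Slc18a1 by 0.25. Sv2b, a vesicle membrane glycoprotein, was lower in every hypoxic pool (-0.34, adjusted p = 0.395).

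Receptors for these peptides were mostly dim. Of 31 listed, 27 had a probe set and 13 were tested, 6 higher and 7 lower with a median of -0.01, and 0 had an unadjusted p under 0.05 or an adjusted one in limma. Npy4r, a receptor of the neuropeptide Y family, read 92.0 to 146.9 in normoxic and 47.0 to 143.0 in hypoxic pools (log2 difference -0.46, adjusted p = 0.703). Npy2r (12.1 to 39.5) and both probe sets of Npy5r (6.7 to 62.9) were below the brightness filter. Sstr3, a somatostatin receptor, differed by -0.19 and Tacr2, a tachykinin receptor, by 0.29.

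**Figure D5:**
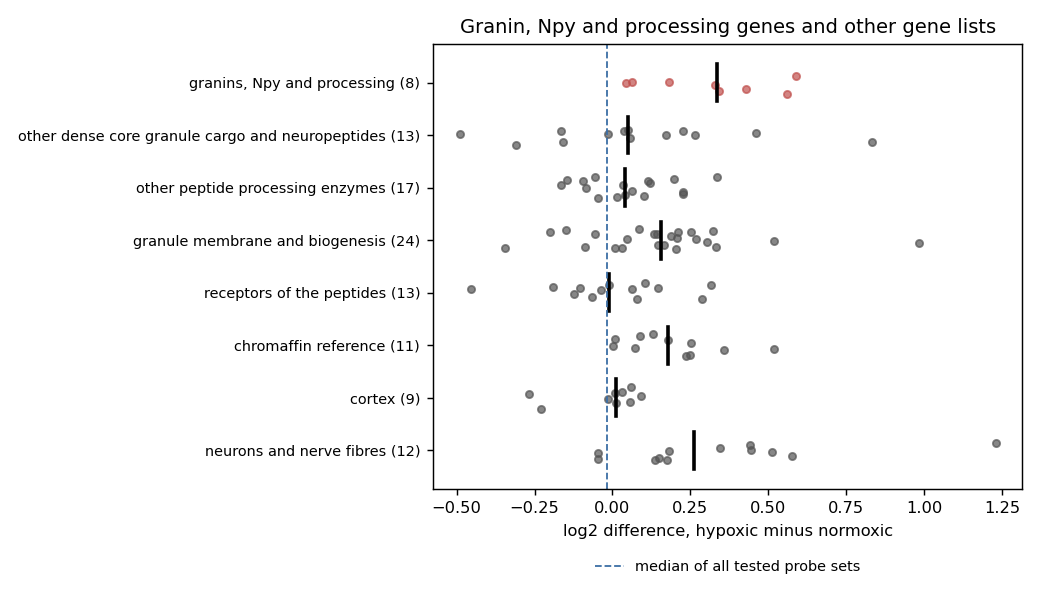
Log2 difference, hypoxic minus normoxic, of each tested gene at its brightest probe set, for the granin, Npy and processing genes (red) and 7 other lists (grey; adipose, leukocyte, endothelial, Schwann and red cell genes are not drawn), with the number of genes in brackets, the list median as a black bar and the median of all tested probe sets (-0.02) as a dashed line. The list medians are 0.34 for the red dots and from -0.01 to 0.26 for the 7 drawn in grey, the red cell list, not drawn, stands at 0.42, and Dbh and Slc18a1 stand in 2 lists.

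The genes most like Npy over the 8 pools were found by the root mean square difference of log2 values, each centred on its own mean, among 9295 other named probe sets. They were Syngr3, a synaptic vesicle protein gene (0.078), Plcl1 (0.11) and Ring1 (0.11). Their log2 differences were 0.57, 0.49 and 0.50 (limma, adjusted p = 0.234, 0.131 and 0.395). Chga (0.17) was 36th and Scg3 (0.17) 39th in that order, and Chgb was 929th. The genes most like Scg3 were Plcl1, Spint2 and Reln (each 0.10), of which Spint2 and Reln rose (log2 differences 0.64 and 0.61, adjusted p = 0.0325 for each in limma). The distance includes the gap between groups, so a gene near Npy or Scg3 must differ by a similar amount. The log2 differences of these neighbours are therefore no separate result, and the places of Chga, Scg3 and Chgb rest partly on that gap.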

How the data were processed

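Deposited values are intensities per probe set, linear, 1 column for each pool. The sources used here name no summarising software. The trimmed mean (2% off each end) was 500.1 on every array, so the authors had scaled the intensities to a common mean, which hides any change shared by most transcripts. Of 15923 probe sets, 57 controls were left out; 12783 of 15866 carried 1 gene symbol in the platform annotation, which can be old, and probe sets with several symbols were not named. No coordinates of probe sets are given. At most 0.308% of values were equal on 2 arrays.

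Intensities were floored at 1 and taken as log2 of the value plus 16, which understates changes of dim probe sets. Array medians lay within 0.117, under a limit of 0.2, so no further normalization was applied. Probe sets below the 30th percentile of mean signal (95.2) were left out. Groups were compared with limma 3.58.1 (lmFit, eBayes with trend; R 4.3.3), two-sided, Benjamini-Hochberg over 11106 probe sets, threshold 0.05; single values by exact permutation. A gene of a list stands by its brightest tested probe set. Intervals are 95%. The fit was also tested on simulated data. Tables and plots used Python 3.11.15, pandas 2.3.3 and matplotlib 3.10.9. The number of arrays limits the precision.

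The members and lists were chosen with earlier results of these data known. Named genes are all members and up to 4 genes of each other list with the lowest p. A fixed panel (Th, Dbh, Pnmt, Slc18a1, Slc18a2, Penk, Vgf, Pcsk1n) and the 3 nearest to Npy and Scg3 were added. Dpp4, Fabp4, C1qa, Nr0b1, Pomc, Tac1, Furin, Npy2r, Npy5r, Phox2a, Gata3 and the ratios between members were chosen after their values were seen. Alternatives were other offsets, filters, variance models and scalings, RNA integrity covariates, a replicate block, gene averages and leaving out each pool.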

Additional observations from a re-analysis of the deposited data

How the results depend on the processing

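The 8 genes kept 0 calls at an adjusted p of 0.05 in all alternatives except the beta-actin covariate, where 1 passed, Npy. The count above 0 was 8 throughout, except relative to the chromaffin reference (5) and with single pools left out (6 to 8), and the count at an unadjusted p under 0.05 was 2 relative to that reference and 4 to 6 otherwise (4 to 5 with a pool left out). Signs turned relative to the reference for Chgb (-0.15), Scg2 (-0.13) and Cpe (-0.0082), and with a pool left out Chgb ran from -0.017 to 0.13 and Scg2 from -0.051 to 0.14. Npy, Scg3, Pam, Scg5 and Chga kept their direction in 19 of 19 alternatives each. The 20 calls over all probe sets became 0 with no brightness filter, no variance trend or the Gapdh covariate, 37 with the beta-actin covariate, and 0 to 31 with a pool left out. The 1 call in the other pathway lists became 0 with no filter, no trend, the Gapdh covariate or the chromaffin reference scale, 2 with the beta-actin covariate, and 0 to 2 with a pool left out (0 without any pool other than hypoxic pool 1). The causes were not tested. Same-numbered pools deviated together for numbers 1 (r = 0.32 across genes) and 3 (0.19), above all other pairs (-0.31 to 0.16). Those numbered 2 (0.0026) and 4 (-0.04) did not, so the numbers were not taken to pair the pools. Normoxic and hypoxic pool 1 each had the lowest beta-actin ratio of their group (0.413 and 0.249). They also had the lowest mean log2 value of the chromaffin reference (9.73 and 9.84). What pools of 1 number share was not tested. With the replicate block there were 18 calls over all probe sets and 0 among the 8 genes. Signal over background limited Pcsk2 and 2 probe sets of Pam.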

Other observations

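Scg5 and Pam had small spreads among normoxic pools. Their coefficients of variation there were 1.82% and 2.07%, below which only 0.693% and 1.01% of tested probe sets lay, while the median of all was 11.7%. Among hypoxic pools theirs were 10.5% and 8.85%, beside a median of 14.2%. Npy went the other way, with 13.2% in normoxic and 7.64% in hypoxic pools. With 4 pools a group the difference in spread was not tested. In 62 groups of 4 pools, over these genes and the others named from the pathway lists, values far from the rest were looked for. Of these groups 0 met the limit for such a value, where 3.1 would by chance. With 4 values a group, a pool can lie far below the others without meeting it, as hypoxic pool 1 did for Pcsk1n.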
